A study of Mus musculus with 4 samples.

Results

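The cells described here were 96 cells of the mouse embryo at the early headfold (EHF) stage, and they were chosen by their own counts. A cell was taken when it held at least 1 unique molecular identifier (UMI, 1 tagged transcript) of *Tcf15*, no UMI of *Meox1*, and at least 1 UMI in 2 or more of *Ppp1r1a*, *Cer1*, *Alx1*, *Cyp26a1* and *Irx5*. These selected *Tcf15*+ cells were 96 of the 3494 EHF cells, a share of 2.75% (exact binomial 95% interval 2.23 to 3.35%). The rule had been proposed for anterior cranial and pharyngeal mesoderm. Lists of genes for those tissues, written with earlier results of these data known, bore that name out only in part. Of the 6 head mesoderm genes with at least 200 UMIs, 3 were at least 2-fold higher in the selected cells than in all other EHF cells, whereas of the 10 such pharyngeal mesoderm and anterior heart field genes none was (1.52% of all genes tested were). Over the *Tcf15*+ *Meox1*+ cells described below, 1 of the 6 head mesoderm genes was at least 2-fold higher and 1 lower. Of all genes tested 7.33% were higher there and 6.21% lower. The selected cells are therefore called by their rule.

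The EHF embryos were of age E7+14h and of genotype TnEGP-CreERT2/+; R26Rtdtomato/R26Rtdtomato, and were exposed to tamoxifen at E7+7h through gavage of the mother (0.08 mg/bw). An inducible Cre at the *T* locus thus marks, by tdTomato, cells that made *T* from about that time on and their descendants. The study also held a mid to late streak (MS/LS) library, at E6+21h with tamoxifen at E6+5h, and a no bud to early bud (OB/EB) library, at E7+3h with tamoxifen at E6+21h, of the same genotype and dose. Every embryo thus carried the Cre allele and both reporter alleles, and there was no untreated group. Each stage was 1 library of pooled embryos, 4 at EHF, so no replicate spread could be had, cells are not replicates, and no test was made. The intervals given are exact 95% intervals that cover counting error only.

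Depth was highest at EHF, with 20376539 UMIs over 18640 genes and a median of 5584 UMIs per cell, against medians of 4251 at MS/LS and 2621 at OB/EB. A second deposited EHF table differed from the first in 0 values and in 21 gene names, and both were counted as 1 library. The EHF library shared 12 cell barcodes with MS/LS and 14 with OB/EB. The selected cells held 1236 to 17007 UMIs each, with a median of 5935 and a sum of 610952, and the other 3398 cells had a median of 5565. Among cells whose sex could be called from their own counts, 97.1% of the selected cells (67 of 69) and 85.3% of the other cells were called female.

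Paraxial mesoderm lies on both sides of the neural tube and forms somites in the trunk, whereas in the head it stays unsegmented and lies beside the pharyngeal and heart-forming mesoderm. *Tcf15* (paraxis) encodes a bHLH factor of paraxial mesoderm that is needed for somites to become epithelial, and *Meox1* encodes a homeodomain factor of somites. Retinoic acid made by the trunk patterns this tissue along its length, and the enzyme encoded by *Cyp26a1* breaks it down.

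For comparison, cells of the same library were grouped by similar rules. There were 51 *Tcf15*+ *Meox1*+ cells (at least 1 UMI of each, median 5992 UMIs), 54 cardiac crescent cells (a UMI in 3 or more of *Nkx2-5*, *Tnnt2*, *Myl7*, *Smarcd3* and *Tbx5*, median 7312) and 108 presomitic cells (a UMI in 3 or more of *Tbx6*, *Dll1*, *Msgn1*, *Dll3* and *Hes7*, median 6267). The 11 cells that met both the *Tcf15*+ *Meox1*+ and the presomitic rule were in neither group, and 2 selected cells also met the crescent rule. Trophoblast cells, 207 in number with a median of 7630 UMIs, served to show how often free RNA puts a UMI of a mesoderm gene into a cell. Levels are UMI counts summed over the cells of a group and scaled to a total of 1000000 (CPM).

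*Tcf15* (GRCm38 chromosome 2, 152143561 to 152149097, plus strand) was present in 272 EHF cells. Of these, 62 also held *Meox1*, and the 210 without it held a UMI in none of the 5 other genes in 65 cells, in 1 of them in 49, in 2 in 32, in 3 in 31, in 4 in 26 and in all 5 in 7. The border of the rule thus ran between the 49 cells with 1 gene and the 32 cells with 2. *Tcf15* itself was at 1 to 9 UMIs per selected cell with a median of 2.5, and 41 of the 96 cells held 1 UMI of it. In the 49 cells just outside, its median was 1 UMI and its highest value 8. A further 23 cells held *Tcf15*, *Meox1* and 2 or more of the 5 genes, and 210 cells held 2 or more of the 5 genes without *Tcf15*.

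The level of *Tcf15* was 434 CPM (383 to 489) in the selected cells and 500 (427 to 583) in the *Tcf15*+ *Meox1*+ cells, and these intervals overlap. In the crescent cells it was 4.18 CPM and in the presomitic cells 5.55. Both *Tcf15*+ groups were chosen by a UMI of *Tcf15*, so this contrast is in part given by the rules. The presomitic group also left out the 11 cells that met the *Tcf15*+ *Meox1*+ rule too. The crescent group left out the 2 selected cells that met its rule. *Meox1* (chromosome 11) was at 0 UMIs in the selected cells by the rule. In trophoblast cells 0.966% held a UMI of *Tcf15*.

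*Ppp1r1a* (chromosome 15, 103530279 to 103538003, minus strand), which encodes an inhibitor of protein phosphatase 1, was the gene of the 5 that most selected cells held. It had a UMI in 86 of the 96 cells, against 16.2% of the other EHF cells and 3.86% of trophoblast cells, and ran from 0 to 17 UMIs per cell with a median of 3. Its level was 643 CPM (581 to 710) in the selected cells, 334 (274 to 402) in the *Tcf15*+ *Meox1*+ cells, 46.0 in the crescent cells and 25 in the presomitic cells. *Ppp1r1a* thus marked both *Tcf15*+ groups above the other 2, at a higher level in the selected cells, although this gene helped to choose them.

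*Cyp26a1* had a UMI in 57 selected cells, at 0 to 7 UMIs per cell. Its level was 164 CPM (133 to 199) in the selected cells, 15.2 (4.92 to 35.4) in the *Tcf15*+ *Meox1*+ cells, 4.18 in the crescent cells and 18 in the presomitic cells. *Cyp26a1* is also made outside mesoderm, and 11.6% of trophoblast cells and of the other EHF cells held a UMI of it. The gene lies on chromosome 19, and its promoter is shown because it is a textbook target of retinoic acid receptors, which bind direct repeats of a short core motif. The 250 bases before its RefSeq start are printed 5′ to 3′ on the plus strand (GRCm38.p6, chr19:37697558-37697807).

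Cyp26a1: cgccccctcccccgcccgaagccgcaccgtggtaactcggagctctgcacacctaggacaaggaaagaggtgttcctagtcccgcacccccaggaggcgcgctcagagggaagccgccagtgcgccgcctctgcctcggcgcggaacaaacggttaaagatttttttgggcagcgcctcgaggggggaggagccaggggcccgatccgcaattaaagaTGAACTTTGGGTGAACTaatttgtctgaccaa

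The capitals mark 2 copies of the core motif, AGTTCA or AGGTCA searched on both strands, that repeat in the same direction with 5 bases between them. They lie here on the minus strand, 32 to 16 bases before the start. Such a repeat stood in 11 of 32851 RefSeq promoter windows of the same length (0.0335%), whereas a single core motif stood in 7937 (24.2%). A match is a description of the letters and says nothing of binding. Of the 6 genes of the rule, 2 (*Cyp26a1* and *Cer1*) were in the promoter table.

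*Cer1* (chromosome 4, 82881751 to 82885148, minus strand), a secreted antagonist of Nodal, BMP and Wnt ligands, had a UMI in 56 selected cells. Its level was 154 CPM (124 to 188) in them, 60.6 (37.0 to 93.7) in the *Tcf15*+ *Meox1*+ cells, 4.18 in the crescent cells and at 0 UMIs in the presomitic cells. *Irx5* (chromosome 8, 92357625 to 92376286, plus strand), an Iroquois homeodomain factor, had a UMI in 55 selected cells and was at 133 CPM (105 to 165), 45.5 (25.5 to 75.0), 25.1 and 8.32 in the same order of groups. *Alx1* (chromosome 10, 102998707 to 103030215, minus strand), a homeodomain factor of the head mesenchyme, had a UMI in 42 selected cells and was at 96.6 CPM (73.5 to 125), 18.2 (6.68 to 39.6), 4.18 and 1.39. These 3 genes also helped to choose the selected cells, so their highest level there is given by the rule. A UMI of *Alx1* was in 0 of the 207 trophoblast cells, which allows a share of up to 1.77%.

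**Figure D1:**
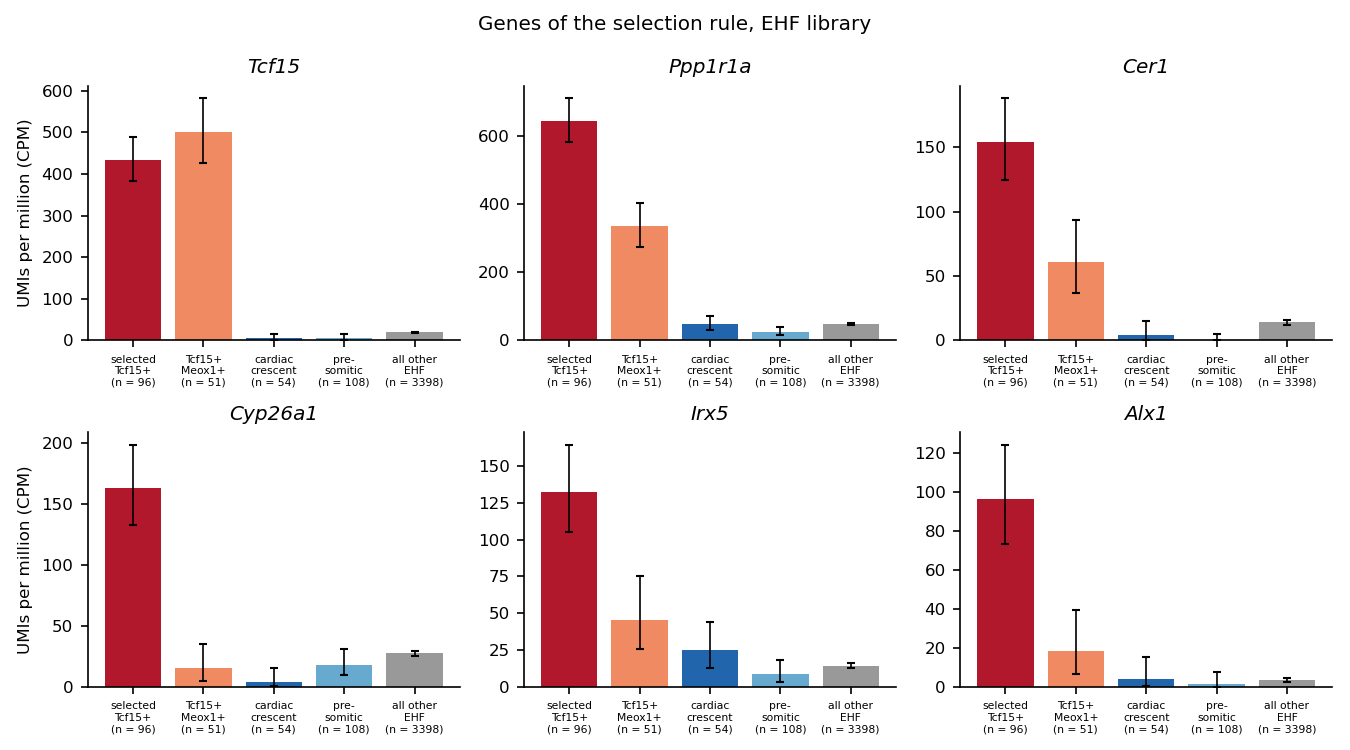
Levels of the 6 genes whose UMIs chose the cells, in CPM, in the selected cells and in 4 other groups of EHF cells; bars are levels over the summed cells and lines their exact 95% counting intervals. *Tcf15*, which helped to choose both *Tcf15*+ groups, is near the same level in them (434 and 500 CPM). *Cyp26a1* is at 164 in the selected cells and at most 27.3 in the other groups.

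Since the rule and the levels were read from the same counts, each cell's UMIs were dealt at random into 2 equal sets, the choice was repeated on the first set, and the levels were read in the second. This chose 50 cells, of which 49 were among the 96. In the unused UMIs *Tcf15* was at 434 CPM (339 to 546), *Ppp1r1a* at 663, *Cyp26a1* at 211, and *Cer1*, *Alx1* and *Irx5* at 114 each. Their log2 ratios over the other EHF cells lay between 2.88 (*Cyp26a1*) and 4.64 (*Alx1*). Both sets come from the same cells, and the rule was chosen with earlier results of these data known. The values are therefore a description and no independent support for the rule.

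The 5 genes were combined in many ways within the 96 cells. The most frequent combination was *Ppp1r1a* with *Irx5*, in 12 cells, followed by *Ppp1r1a*, *Cer1*, *Cyp26a1* and *Irx5* together, in 10 cells, and 7 cells held all 5. Of the 42 cells with *Alx1*, 71.4% also held *Cyp26a1* and 45.2% held *Irx5*.

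The selected cells were next compared with all other EHF cells over the 7493 genes that had at least 200 UMIs in the library, were no gene of the rule and could be given a ratio. The median log2 ratio of these genes was -0.06. In the selected cells 114 genes (1.52%) were at least 2-fold higher and 746 (9.96%) at least 2-fold lower. The cells were selected on a few genes of the same library, so these figures and the values that follow are descriptions. The named genes are members of lists, or the genes with the largest and smallest ratios that had a UMI in at least 25% of the cells of the higher group.

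Head mesoderm factors were among the genes with the largest ratios. *Foxc1* and *Foxc2* encode forkhead factors of paraxial and head mesoderm. *Foxc1* was at 73.7 CPM (53.7 to 98.6) in the selected cells and 12.4 in the others, a log2 ratio of 2.57 (2.08 to 3.03). *Foxc2*, which was under the minimum of 200 UMIs and so not counted, was at 73.7 against 7.39. Of the 96 cells, 62.5% held a UMI of one or the other and 9 held both. Neither separated the selected cells from the *Tcf15*+ *Meox1*+ cells, where *Foxc1* was at 72.8 CPM and *Foxc2* at 112.

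*Prrx2*, a paired-related homeodomain factor of mesenchyme, was at 113 CPM in the selected cells against 21.0 in the others, with a log2 ratio of 2.43 (2.04 to 2.80). It was higher still in the *Tcf15*+ *Meox1*+ cells, at 209 CPM. *Otx2*, a factor of the anterior embryo, was at 60.6 CPM against 21.8 in the others, 36.4 in the *Tcf15*+ *Meox1*+ cells and 4.16 in the presomitic cells. It thus set the selected cells apart from the presomitic cells more than from the *Tcf15*+ *Meox1*+ cells, from which its interval did not separate them (log2 ratio 0.73, -0.24 to 1.81). The list's median log2 ratio was 1.24. Its exception was *Dlk1*, a Notch ligand relative, at 6.55 CPM in the selected cells and 53.2 in the others.

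Several factors of head mesenchyme and early muscle were below 200 UMIs in the library, so they were not counted and are given by their values alone. *Twist1*, a bHLH factor of mesenchyme, was at 37.6 CPM in the selected cells and 4.96 in the others, and *Ebf2* at 18 and 1.06. *Pax3*, a paired-box factor of somites and neural crest, was at 19.6 and 0.81 CPM, and *Eya1*, a transcriptional co-activator, at 16.4 and 1.97. These genes rested on 10 to 23 UMIs each. *Twist2* went the other way, with 1 UMI (1.64 against 4.15 CPM). Over the *Tcf15*+ *Meox1*+ cells the intervals of *Pax3* (log2 ratio 0.70, -1.03 to 2.78) and *Eya1* (0.85, -1.11 to 3.35) took in 0. Of the 22 head mesoderm genes in the library 6 were counted, and only some of the others are given.

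The pharyngeal mesoderm and anterior heart field list went the other way over all other cells, with a median log2 ratio of -0.73. Of all genes tested 1.52% were at least 2-fold higher and 9.96% lower. Of the list's 10 counted genes 0 were at least 2-fold higher and 5 lower. The 5 lower genes were *Id2* (116 against 395 CPM), *Hand1* (9.82 against 132), *Foxf1* (4.91 against 26.2), *Bmp2* (4.91 against 15.0) and *Fgf15* (6.55 against 19.9). Over the crescent cells 6 of the 10 genes were at least 2-fold lower and 1 higher (7.27% and 6.77% of all genes tested). Over the *Tcf15*+ *Meox1*+ cells 3 were lower and 3 higher (6.21% and 7.33%). *Isl1*, a LIM homeodomain factor of heart progenitors, had 9 UMIs in the selected cells (14.7 CPM against 10.2). *Mef2c* was at 16.4 against 14.9 CPM.

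By contrast, some uncounted genes of that list were high. *Tbx1*, a T-box factor of pharyngeal mesoderm, was at 42.6 CPM (27.8 to 62.4) in the selected cells, 2.23 in the others, 12.1 in the *Tcf15*+ *Meox1*+ cells and at 0 UMIs in the crescent cells. A UMI of *Tbx1* was in 21 selected cells (21.9%), against 1.06% of the other cells and 0.483% of trophoblast cells. *Irx1* was at 49.1 against 8.55 CPM, and *Tgfbi* at 18 against 1.72. Of the list's 19 genes in the library 10 were counted, and *Tbx1*, *Irx1* and *Tgfbi* are only some of the rest. The list thus held a few genes that are rare in the library and high here, and counted genes that were low here.

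Of all genes tested 1.52% were at least 2-fold higher and 9.96% lower than in the other EHF cells. Of the 8 counted cardiac crescent genes 2 were at least 2-fold higher and 4 lower, with a median log2 ratio of -0.70. The 2 higher genes were *Myl7*, atrial myosin light chain, and *Smarcd3*, a chromatin remodelling subunit of heart progenitors. *Myl7* was at 272 CPM (232 to 316) in the selected cells and 58.6 in the others, a log2 ratio of 2.21 (1.97 to 2.45). It ran from 0 to 8 UMIs per cell, and 66.7% of the selected cells held it, against 15.1% of the others and 4.35% of trophoblast cells. Among cells with at least 3000 UMIs, each thinned to that depth, these shares were 52.2%, 10.3% and 2.02%.

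The *Tcf15*+ *Meox1*+ cells had *Myl7* at 78.8 CPM. The crescent cells, which were chosen with this gene, had it at 671. *Smarcd3* was at 63.8 CPM in the selected cells, 63.7 in the *Tcf15*+ *Meox1*+ cells and 167 in the crescent cells. Other contractile and cardiac genes were rare or absent. *Tnnt2*, cardiac troponin T, had 3 UMIs in the selected cells and 159 CPM in the crescent cells, *Nkx2-5* had 2 UMIs, and *Tbx5*, *Tbx20*, *Myl4* and *Wnt2* had 0. *Actc1*, cardiac actin, had 15 UMIs (24.6 CPM against 6.48 in the other EHF cells). The high level of *Myl7* in the selected cells thus came with few or no UMIs of most other heart muscle genes.

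**Figure D2:**
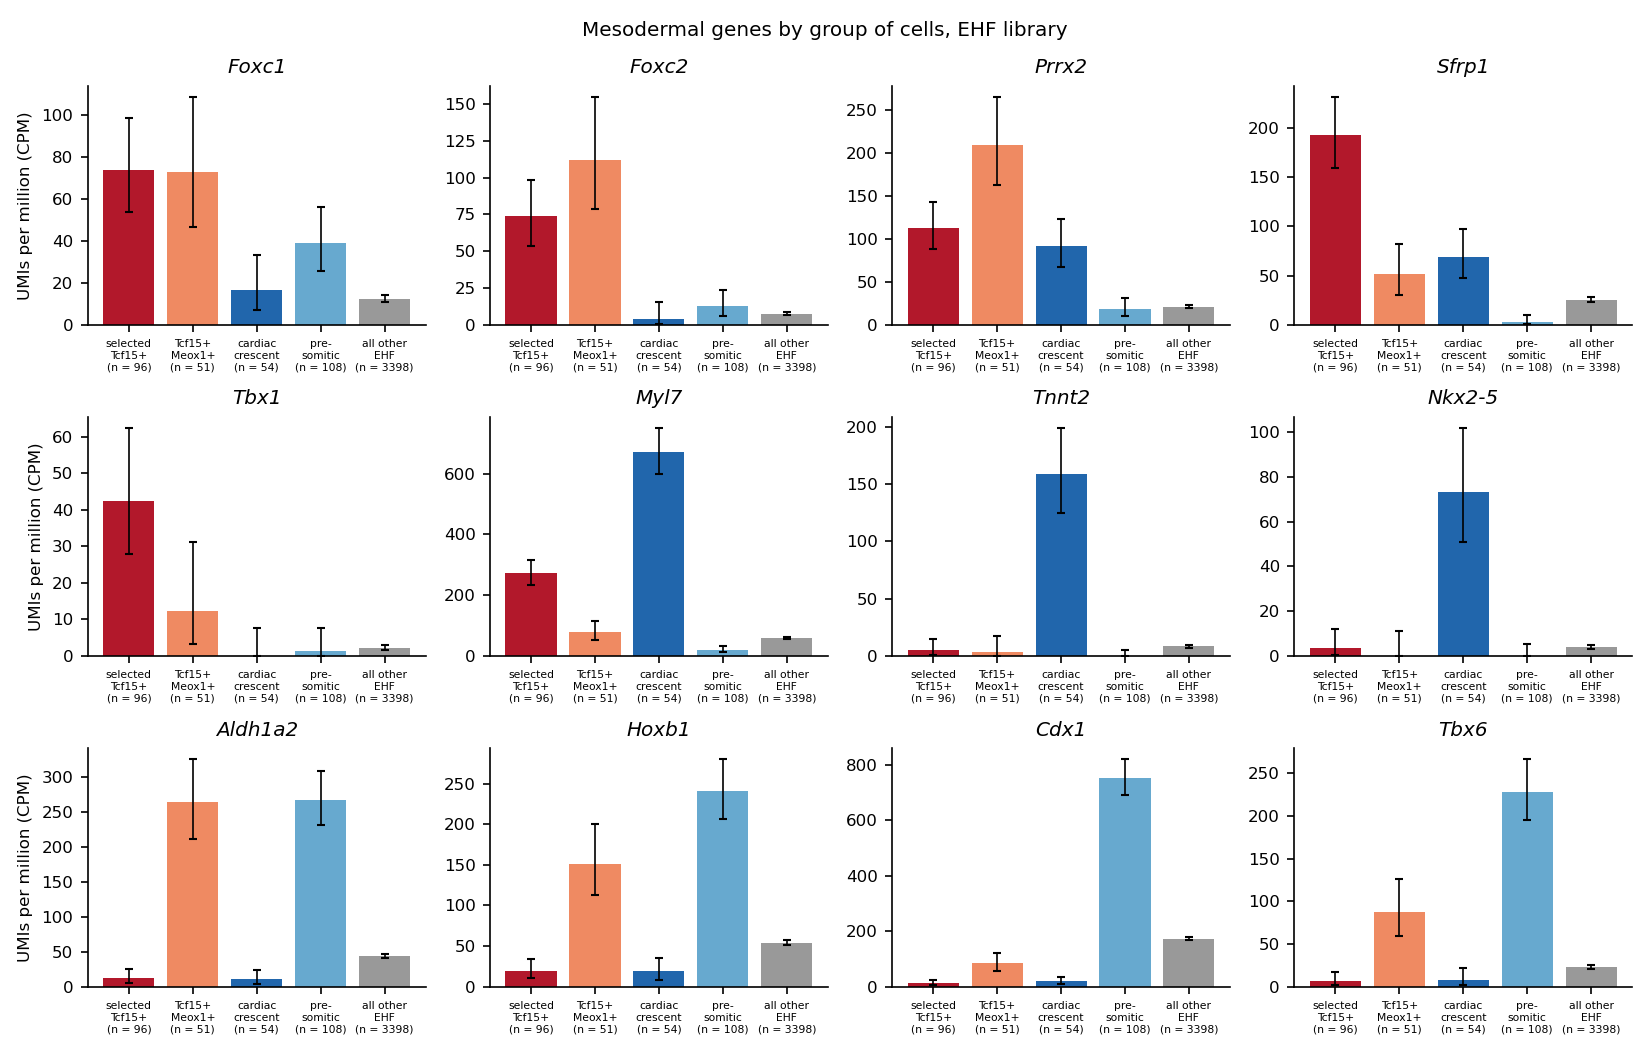
Levels in CPM of 12 genes of the head mesoderm, cardiac, retinoic acid and trunk lists in the selected cells and 4 other groups of EHF cells, with exact 95% counting intervals. *Myl7*, *Tnnt2* and *Nkx2-5* helped to choose the crescent cells and *Tbx6* the presomitic cells; in the selected cells *Myl7* is at 272 CPM with *Tnnt2* at 4.91, and *Aldh1a2* is at 13.1 against 264 in the *Tcf15*+ *Meox1*+ cells.

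Secreted antagonists of Nodal, BMP and Wnt other than *Cer1* included the gene with the largest ratio of all. *Sfrp1*, a secreted frizzled-related protein that binds Wnt ligands, was at 193 CPM (160 to 231) in the selected cells and 25.3 in the others, a log2 ratio of 2.93 (2.63 to 3.22). A UMI of it was in 60.4% of the selected cells, 9.89% of the others and 2.42% of trophoblast cells. It was at 51.6 CPM in the *Tcf15*+ *Meox1*+ cells, 69.0 in the crescent cells and 2.77 in the presomitic cells, with no overlap of the counting intervals between the selected cells and any of the 3.

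*Shisa2*, which encodes a protein that holds back Wnt and FGF receptors inside the cell, was at 78.6 CPM (57.9 to 104), against 19.4 in the others and 9.10 (1.88 to 26.6) in the *Tcf15*+ *Meox1*+ cells. The list had 6 counted genes, 2 of them at least 2-fold higher, none lower, and a median log2 ratio of 0.78, where 1.52% of all genes tested were higher. *Fst*, follistatin, was at 119 against 125 CPM and *Frzb* at 37.6 against 46.0. *Lefty2*, a Nodal antagonist under the minimum count, had 5 UMIs in the selected cells (8.18 against 1.67 CPM, log2 ratio 2.29, 0.58 to 3.66). The transcripts of *Chrd*, *Bmper* and *Notum* were at 0 UMIs in the selected cells and at 3.74 to 5.62 CPM in the others.

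Further genes with large ratios over the other cells were *Fbn2*, a fibrillin of the extracellular matrix (57.3 against 11.3 CPM), *Pkdcc*, a secreted kinase of skeletal development (88.4 against 18.4), *Crnde*, *Trp53i11* and *Nnat* (213 against 58.7). *Crnde* lies 1504 bases from *Irx5*, a gene of the rule. *Vcan*, versican (62.2 against 15.5), *Pdgfra*, the PDGF receptor of mesenchyme (88.4 against 28.4), *Bmp7* (50.7 against 16.2), *Fzd2*, a Wnt receptor, and *Aplnr*, the apelin receptor, followed at log2 ratios of 1.52 to 2.01. *Cdh11*, a cadherin of mesenchyme, was at 37.6 against 11.3 CPM. The epithelial genes *Cdh1* (13.1 against 64.7) and *Epcam* (27.8 against 124) were lower. In the mesenchyme and adhesion list, 4 of 23 counted genes were at least 2-fold higher and 5 lower, with a median of -0.32, beside 1.52% and 9.96% of all genes tested.

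**Figure D3:**
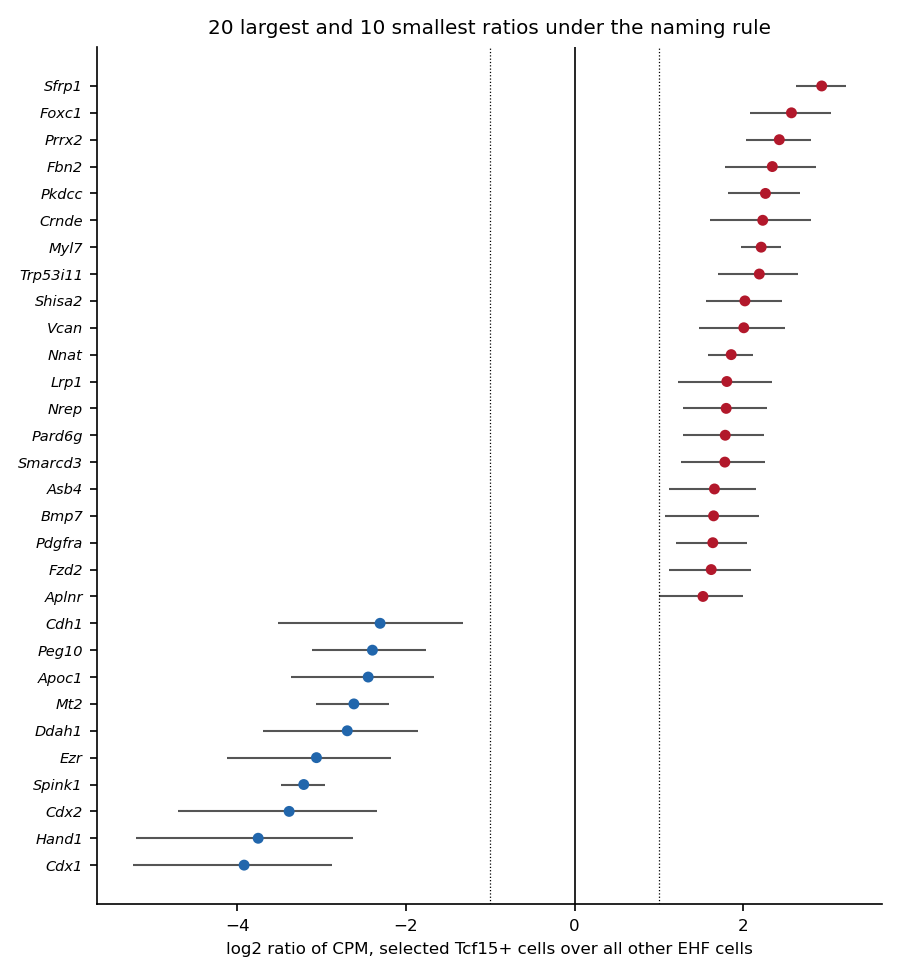
Log2 ratios of CPM in the selected cells over the other EHF cells for the 20 genes with the largest and the 10 with the smallest ratios under the naming rule, with exact 95% counting intervals; dotted lines mark a 2-fold difference. *Sfrp1* (2.93), *Foxc1* (2.57) and *Prrx2* (2.43) stand at the top, and *Cdx1* (-3.92) and *Hand1* (-3.75) at the bottom.

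A gene of retinoic acid synthesis set the selected cells apart from the *Tcf15*+ *Meox1*+ cells. *Aldh1a2*, the enzyme that makes retinoic acid in trunk mesoderm, was at 13.1 CPM (5.65 to 25.8) in the selected cells, 264 (211 to 325) in the *Tcf15*+ *Meox1*+ cells and 268 (231 to 308) in the presomitic cells. A UMI was in 5.21% of the selected cells and in 58.8% of the *Tcf15*+ *Meox1*+ cells. *Cyp26a1*, which breaks retinoic acid down and helped to choose the cells, was at 164, 15.2 and 18 CPM in the same groups.

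Over the other EHF cells, 1.52% of all genes tested were at least 2-fold higher and 9.96% lower. Of the 10 counted retinoic acid genes 1 was at least 2-fold higher and 4 were lower, with a median log2 ratio of -0.40. The higher one was *Crabp1*, a cellular retinoic acid binding protein, at 211 against 80.2 CPM, and it was higher again in the *Tcf15*+ *Meox1*+ cells (385). The receptors *Rara*, *Rarg* and *Rxrb* were at 13.1 to 14.7 CPM, within 2-fold of the other cells. *Rbp4*, at 257 CPM, rested on 1 cell. That cell, which held 17007 UMIs, the most of the 96, and lay in a cluster apart from most of them, held 127 of the 157 UMIs of *Rbp4*, 122 of 157 of *Ttr*, 120 of 151 of *Apoa1* and 69 of 122 of *Spink1*, all of them endoderm genes. Without it these 4 genes were at 50.5, 58.9, 52.2 and 89.2 CPM.

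Compared over all genes, 548 of 7475 (7.33%) were at least 2-fold higher and 464 (6.21%) at least 2-fold lower in the selected cells than in the 51 *Tcf15*+ *Meox1*+ cells. With so few cells many of these ratios were uncertain, and the counting interval was clear of 0 for 92 and 146 of them. The higher named genes included *Shisa2* (log2 ratio 3.11), *Id2*, an inhibitor of bHLH factors (116 against 21.2 CPM), *Lgmn*, *Sfrp1* (1.91), *Myl7* (1.78), *Lpar1*, *Qdpr* and *Mfap2*. *Ttr* and *Spink1* were among them too, through the 1 cell described above.

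The lower named genes were trunk genes for the most part, *Aldh1a2* (log2 ratio -4.33), *Tbx6*, a T-box factor of presomitic mesoderm (-3.75), *Rspo3*, a Wnt agonist (-3.29), *Hoxb1* (-2.95), *Cdx1* (-2.89) and *Hoxb2* (-2.63). Of the 11 counted presomitic genes 9 were at least 2-fold lower and none higher (6.21% and 7.33% of all genes tested). Their median was -2.21. Of the 6 counted head mesoderm genes 1 was higher and 1 lower, with a median of 0.06.

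Hox and Cdx genes, which give cells their position along the trunk, were low in the selected cells. A UMI of any Hox gene was in 28.1% of them (19.4 to 38.2%), against 86.3% (73.7 to 94.3%) of the *Tcf15*+ *Meox1*+ cells, 63.0% of the crescent cells, 99.1% of the presomitic cells and 13.0% of trophoblast cells. In the selected cells 25 of the 31 Hox genes measured were at 0 UMIs, as were 20 in the crescent cells, 19 in the *Tcf15*+ *Meox1*+ cells and 11 in the presomitic cells, and many of these genes were rare in the whole library. *Hoxb1* had 12 UMIs and *Hoxb2* 9. *Cdx1* was at 11.5 CPM in the selected cells, 173 in the other EHF cells, 84.9 in the *Tcf15*+ *Meox1*+ cells, 18.8 in the crescent cells and 754 in the presomitic cells.

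Against the 108 presomitic cells, 432 of 7484 genes (5.77%) were at least 2-fold higher in the selected cells and 534 (7.14%) at least 2-fold lower. *Sfrp1* (log2 ratio 6.12), *Crnde* (5.05), *Pkdcc* (4.99), *Fbn2* (4.37), *Otx2* (3.86), *Myl7* (3.81), *Bmp7* (3.61), *Shisa2* (3.50), *Irx3* (3.41) and *Slc39a8* (3.05) were the highest under the naming rule. The lowest under it were *Gal* (-6.45), *T* (-6.15), *Cdx1* (-6.04), *Mgst1*, *Rspo3* (-5.10), *Sp5* (-5.08), *Sh3gl3*, *Fabp7*, *Nkx1-2* (-4.52) and *Aldh1a2* (-4.35). *T*, *Sp5* and *Nkx1-2* are genes of the primitive streak and its late progenitors. The selected cells held 4 UMIs of *T*, 4 of *Tbx6*, 1 of *Dll1* and 1 of *Hes7*. *Dll3*, a Notch ligand relative that helped to choose the presomitic cells, was the exception with 16 UMIs in 13 cells (26.2 CPM against 144 in the presomitic cells).

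Against the 54 crescent cells, 506 of 7478 genes (6.77%) were at least 2-fold higher and 544 (7.27%) at least 2-fold lower. The higher named genes included *Ptn*, a secreted heparin-binding growth factor (log2 ratio 3.48), *Trp53i11* (3.14), *Lpar1* (2.45), *Shisa2* (2.42), *Pdlim4* (2.38), *Foxc1* (2.14) and *Crabp2*, a second retinoic acid binding protein (2.10). The lower ones were *Dok4* (-5.21), *Pmp22* (-5.06), *Nrp1*, a receptor of semaphorins and VEGF (-4.91), *Bmp4* (-4.68), *Hand1* (-4.51), *Cryab*, *Rgs5*, *Prdm6* and *Foxf1* (-4.02). *Tbx20*, a T-box factor of the heart, was at 0 UMIs in the selected cells and at least 4.05 lower on the log2 scale, with a floor of 3 UMIs. *Bmp4*, a BMP ligand, and *Hand1*, a bHLH factor that is also high in extraembryonic mesoderm, were thus among the genes that set the crescent apart, and *Myl7* had a log2 ratio of -1.31 to the cells it had helped to choose.

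In the FGF list 4 of 12 counted genes were at least 2-fold lower than in the other EHF cells and none higher. Of all genes tested 9.96% were lower and 1.52% higher. *Etv4*, an ETS factor that FGF signalling induces, was at 0 UMIs, and *Etv5* was at 13.1 CPM against 29.5. The ligand *Fgf3* was at 19.6 against 58.3 CPM, *Fgf8* at 42.6 against 24.2, and the receptor *Fgfr1* at 90.0 against 82.5. In the Notch list 2 of 6 counted genes, *Dll1* and *Dlk1*, were lower and none was higher, and *Hes1* was at 83.5 against 58.7 CPM.

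Most lists of markers of other tissues were low, where 9.96% of all genes tested were at least 2-fold lower. Of the endoderm list 11 of 12 counted genes were at least 2-fold lower, *Sox17* had 2 UMIs, and *Foxa1* and *Foxa2* had 0, while the list summed to 828 CPM in the selected cells, through the 1 cell above for the most part, and 4389 in the others. All 8 counted surface ectoderm and trophoblast genes were lower (85.1 against 669 CPM summed), as were 5 of 6 endothelium and blood genes (70.4 against 367), 4 of 4 notochord and streak genes (19.6 against 207) and 7 of 9 allantois and mesenchyme genes (332 against 1133). Of the neuroectoderm list 2 of 4 were lower, at 178 against 185 CPM summed. *Etv2*, a factor of endothelial and blood progenitors, had 18 UMIs in 7 selected cells, 9 of them in 1 cell.

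When the EHF cells were clustered with the genes of the rule held out, 80 of the 96 cells (83.3%) fell into 1 of 29 clusters and the other 16 were spread over 10. The shared cluster held 202 cells in all, 29 of them *Tcf15*+ *Meox1*+ cells. The 16 cells outside were nearer to the border of the rule, as 10 of them held exactly 2 of the 5 genes (22 of the 80 inside) and 10 held 1 UMI of *Tcf15* (31 of the 80). *Myl7* was at 316 CPM inside the cluster and 64.9 outside, *Alx1* at 113 and 18.5, and *Tcf15* at 463 and 297. *Irx5* had the reverse order, at 123 and 176 CPM. The genes that were held out still differ along with those that remained, so the shared cluster is a description and no test.

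Levels also varied from cell to cell. The lowest, median and highest numbers of UMIs per selected cell were 0, 1 and 5 for *Sfrp1*, 0, 1.5 and 8 for *Myl7*, 0, 1 and 7 for *Crabp1*, 0, 0 and 3 for *Foxc1*, and 0, 0 and 3 for *Tbx1*. Counts this small cannot separate a cell without the transcript from one in which it was missed. *Alx1* had a UMI in 53.1% of the 64 cells with *Myl7* and in 25% of those without, and *Cyp26a1* in 70.3% and 37.5%. *Tbx1* did not follow *Myl7* in this way, since *Myl7* was in 61.9% of the 21 cells with *Tbx1* and in 68.0% of those without. The cells were not thinned to equal depth for these shares, and *Alx1* and *Cyp26a1* are genes of the rule. The source of the differences was not tested.

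**Figure D4:**
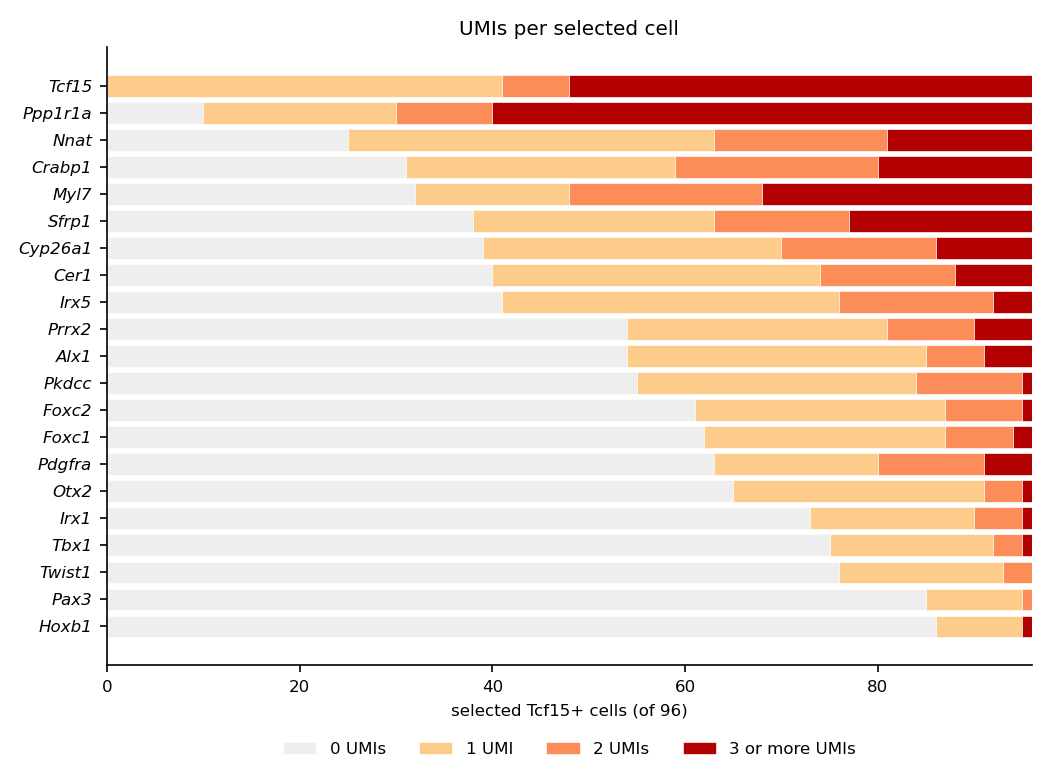
Number of the 96 selected cells with 0, 1, 2 or 3 and more UMIs for 21 genes, as stacked bars. *Tcf15* is in all 96 cells by the rule and *Ppp1r1a* in 86, *Myl7* is in 64, and *Tbx1* is in 21 with at most 3 UMIs.

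The 69 cells with a UMI of *Alx1* or *Cyp26a1* (median 6227 UMIs) were set beside the 27 cells with neither (median 5431), which met the rule by *Ppp1r1a*, *Cer1* and *Irx5*. *Myl7* was at 307 CPM in the cells with either gene and 152 in those without, a log2 ratio of 1.01 (0.35 to 1.75). *Shisa2* was at 95.2 and 21.7 CPM. *Tbx1* had the reverse order, at 29.6 CPM in the cells with either gene and 86.8 in those without, a log2 ratio of -1.55 (-2.77 to -0.31). *Epha4*, an ephrin receptor, was at 42.3 and 101 CPM. These counts are small, with *Tbx1* at 14 and 12 UMIs and *Shisa2* at 45 and 3. The cells were split by genes of the rule and the sets differed in depth. *Alx1* and *Myl7* were also both lower in the 16 cells outside the shared cluster. The differences are therefore a description, and their source was not tested.

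The tdTomato reporter asks which cells made *T* between tamoxifen and collection, or descend from cells that did. A log-normalised tdTomato value above 1 was found in 6 of the 96 selected cells, 6.25% (2.33 to 13.1%), and in 7.95% (7.06 to 8.91%) of the other EHF cells. It was found in 9 of the 51 *Tcf15*+ *Meox1*+ cells, 17.6% (8.40 to 30.9%), in 41 of the 108 presomitic cells, 38.0% (28.8 to 47.8%), and in 0 of the 54 crescent cells, which allows a share of up to 6.60%. In trophoblast cells it was 0 of 207, up to 1.77%. The interval of the selected cells was below that of the presomitic cells and overlapped those of the *Tcf15*+ *Meox1*+ and crescent cells. With 1 UMI as the threshold the share was 8.33% (3.67 to 15.8%) in the selected cells and 37.3% (24.1 to 51.9%) in the *Tcf15*+ *Meox1*+ cells, and these intervals did not overlap. After thinning the shares were 4.44% (1.22 to 11.0%) and 16.0% (7.17 to 29.1%), which did overlap. Overlap thus changed with the measure, and the intervals cover counting error within 1 pool of embryos only. Only 8 selected cells held a UMI of tdTomato (WPRE-tdTomato), 10 UMIs in all. It was in 5% of the 80 selected cells of the shared cluster and in 25% of the 16 outside it, with 5 UMIs in each set. The 69 cells with *Alx1* or *Cyp26a1* held 3 UMIs of WPRE-tdTomato (6.35 CPM) and the 27 cells with neither held 7 (50.6 CPM), a log2 ratio of -3.00 (-5.58 to -0.87). That interval takes UMIs of the same cell as separate, and 2 cells held 2 UMIs each. With so few cells, a difference in reporter within the selected cells was not tested.

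**Figure D5:**
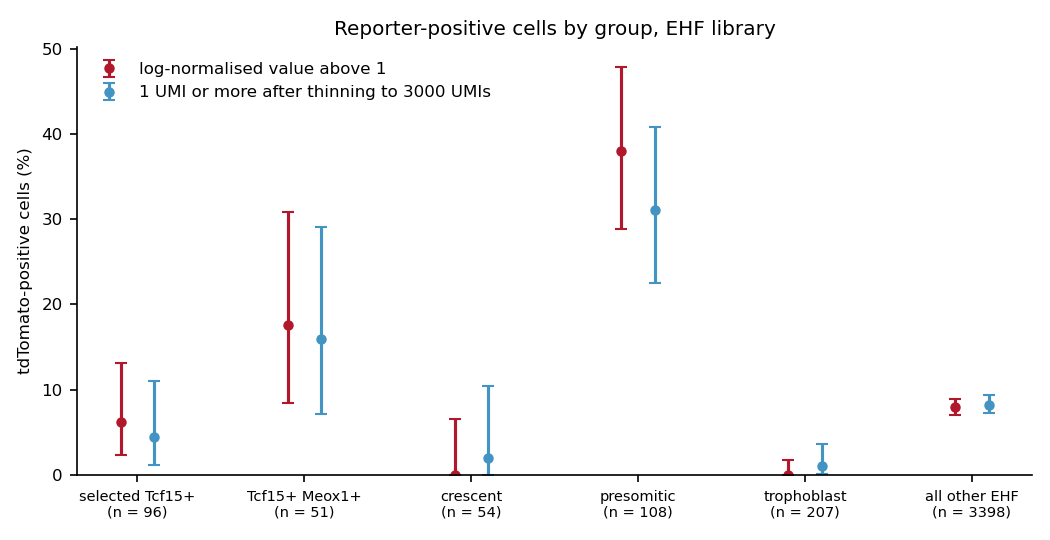
Share of cells positive for tdTomato, in percent, in 6 groups of EHF cells by 2 measures, with exact binomial 95% intervals. The selected cells are at 6.25% by a log-normalised value above 1, between the crescent cells (0 of 54) and the presomitic cells (38.0%).

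The same rule was applied to the other stages, which it had not been made on. It took 11 of 3635 cells at MS/LS, 0.303% (0.151 to 0.541%), and 5 of 3994 at OB/EB, 0.125% (0.0407 to 0.292%), against 2.75% at EHF. The rule was also applied to cells with at least 3000 UMIs, each thinned to 3000. It then took 3 of 2878 cells at MS/LS, 0 of 1522 at OB/EB and 47 of 2897 at EHF. Shallower cells were left out, so only 1522 of the 3994 OB/EB cells were in this comparison. The rule was made on the EHF library, so its highest share there is in part given by the rule. *Tcf15* alone had a UMI in 3.88%, 1.53% and 7.78% of the cells of the 3 stages, and *Meox1* in 7, 0 and 153 cells.

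The cells that met the rule at the earlier stages were few, and their levels rest on small counts. *Trh*, a gene of the early definitive endoderm, was at 319 CPM (210 to 464) in the 11 cells at MS/LS, against 104 in that whole library and 3.27 in the EHF selected cells. *Epcam* was at 224 CPM, near its library level of 216. *Cer1* had 20 UMIs in the 11 cells, *Cyp26a1* 17, *Fgf8* 18 and *Eomes*, a T-box factor of the streak, 13, whereas *Alx1* and *Irx5* had 1 each and *Prrx2* had 0. Genes that were high in the EHF selected cells were found there too, *Sfrp1* with 5 UMIs (59.0 CPM against 22.3 in the library), *Otx2* with 10 (118 against 60.8) and *Myl7* with 11 (130 against 86.2), and the counting intervals of these 3 genes took in the library level. In the 5 cells at OB/EB *Myl7* had 18 UMIs in 2 cells (766 CPM against 191 in that library), *Irx5* and *Sfrp1* had 2 UMIs each (85.1 CPM), *Foxc1* had 1, and *Epcam*, *Apoa1*, *Alx1* and *Prrx2* had 0. It was not settled whether the rule met the same kind of cell at the 3 stages.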

How the data were processed

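Single-cell libraries were made with the 10x Genomics 3′ kit. The submitters' processing notes name Cell Ranger 3.0.2, R 3.6.1, Seurat 3 and GRCm38. The authors deposited raw UMI counts per gene and cell for each library, already filtered to cells with at least 500 genes and 1000 UMIs as the tables show. Counts were used as deposited with Seurat 5.3.0 in R 4.3.3 and scipy 1.17.1, scanpy 1.11.5, pandas 2.3.3, numpy 2.4.6 and matplotlib 3.10.9 in Python 3.11.15.

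UMIs were summed over the cells of a group and scaled to CPM. Log2 ratios carry the exact conditional interval of a ratio of 2 counts, and a group at 0 was set at a floor of 3 UMIs. No ratio was taken where both groups were at 0 or the floor lay above the level of the other group. Genes at or under 3 UMIs in both groups were not counted as higher or lower. A gene was counted as higher or lower at 2-fold among genes with at least 200 UMIs over all EHF cells. The genes of the rules that chose a pair of groups were left out of the counts of that pair. The ratio calculation was tested on simulated data. With 1 library per stage no test was possible. Named genes were the genes of the rule, those of the lists, and the 20 largest and 10 smallest ratios over the other EHF cells, with the 10 largest and 10 smallest over each other group, among genes with a UMI in at least 25% of the cells of the higher group (leaving out mitochondrial, ribosomal, sex-linked, predicted and vector genes). The members and lists were chosen with earlier results of these data known. Some genes are given as values although they were not counted, and some named by the rule are not reported here. Clustering followed the study's methods (2000 variable genes, 50 components, resolution 4.5). Doublets were kept, and leaving out the 5% of cells with the highest Scrublet scores (172 cells, 6 of them selected) was an alternative. Other alternatives varied the rule, the depth, the minimum count and the scaling. Gene positions are from GENCODE on GRCm38.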

Additional observations from a re-analysis of the deposited data

How the results depend on the processing

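No paired analysis was possible because each stage is 1 library, and no replicate could be left out. The number of selected cells was 47 when the rule was applied after thinning to 3000 UMIs, with shallower cells left out. It was 145 when 1 or more of the 5 genes was asked for. Counts of genes at least 2-fold higher and lower followed the minimum count. Over the other EHF cells they were 423 and 1369 at 50 UMIs, 12 and 140 at 1000, and 1585 and 1369 with no minimum. Thinning before the choice gave 213 higher genes and thinning after it 232. Over the *Tcf15*+ *Meox1*+ cells they were 936 and 720, 52 and 34, and 973 and 739 at the same minima, over the crescent cells 887 and 929, 59 and 67, and 925 and 970, and over the presomitic cells 846 and 1070, 59 and 62, and 912 and 1141. Thinning before the choice gave 727, 877 and 846 lower genes against these 3 groups. Asking for a counting interval clear of 0, a step chosen after seeing the data, left 92 and 146, 179 and 250, and 220 and 293.

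List medians over the other EHF cells that crossed 2-fold or changed sign did so as follows. At a minimum of 1000 UMIs, which leaves few genes of a list, the head mesoderm median turned to -1.23, the pharyngeal one went to -2.76, the cardiac one to 2.21 and the Notch one to -1.26. The presomitic median was -0.96 with thinning before the choice, -0.87 with 1 or more of the 5 genes and -0.68 without the *Meox1* condition. The Hox median was -0.96 with 1 or more of the 5 genes, -0.88 without the *Meox1* condition, and -0.96 at 50 UMIs and with no minimum. With thinning before the choice the retinoic acid median was -1.53 and the neuroectoderm one -1.22, and the latter was -1.23 at 50 UMIs.

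*Ttr* over the *Tcf15*+ *Meox1*+ cells turned to -0.25 without the highest Scrublet scores, -0.016 with thinning before the choice, and, in steps chosen after seeing the data, -0.23 within the shared cluster and -0.24 without the cell with the most UMIs. In the unused UMIs *Cer1* was at 114 CPM and *Cyp26a1* at 211. At resolution 12 the largest cluster held 57.3% of the selected cells. The rule took 0.104% of cells at MS/LS after thinning, 1.87% with 1 or more and 0.0275% with 3 or more of the 5 genes, and at OB/EB 0, 0.476% and 0.0250%. The ratios of named genes over the other EHF and presomitic cells kept their direction and their side of 2-fold under every alternative run, whereas 8 values over the *Tcf15*+ *Meox1*+ cells and 4 over the crescent cells fell under 2-fold. Restricting to cells called female, also chosen after seeing the data, moved no count, median or named ratio across these limits.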
